A study of Mus musculus with 4 samples.

Results

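The cytoplasmic ribosomal protein genes encode the proteins of the small and the large subunit of the ribosome that translates nuclear mRNAs. Members were the genes of the deposited single-cell table whose symbol starts with Rpl or Rps and a digit, together with Rpsa, Rplp0, Rplp1 and Rplp2, leaving out the Rps6k kinases and symbols that contain -ps. This gave 84 of 16600 genes. Of these, 77 encode standard subunit proteins, 31 of the small subunit and 46 of the large one, and the latter number counts the 3 acidic stalk proteins Rplp0, Rplp1 and Rplp2. The other 7 are relatives: Rpl22l1, Rps27l, Rpl36al, Rpl6l, Rps27rt and Rpl7l1 resemble a subunit gene, and Rps19bp1 encodes a protein that binds Rps19. The subunit genes lie on 19 chromosomes, with 14 of them on chromosome 7 and 4 on the X chromosome. The 15 pseudogene rows that the rule left out held 0.110% of the UMIs.

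A ribosome takes 1 copy of most of these proteins, so cells make them in near-equal numbers and their mRNAs are among the most abundant in a cell. The mRNAs usually begin with a short run of pyrimidines, the 5' terminal oligopyrimidine or TOP motif, through which mTOR signaling and the protein Larp1 set how strongly they are translated. In the developing cortex, radial glia are the stem cells that line the ventricle, intermediate progenitors are their dividing daughters, and these give rise to excitatory neurons, whereas interneurons and striatal neurons come from Dlx-expressing progenitors of the subpallium.

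The cells were sorted as CD24+ CD45- from the cortex of E18.5 fetuses of strain C57BL/6J, 2 of them Setd5+/+ and 2 Setd5+/-, where the Setd5 GFP transgenic mouse served as the heterozygous knockout. CD24 was used as a pan-neuronal marker and CD45 as one of blood cells. The 4 libraries are named by the prefix of their cells (WT3 and WT6, Het5 and Het9). These names tell the genotype of a library but carry no replicate number of the labels, so that no pairing was possible. The table held 6562 cells, 1445 to 1954 per library, and 8205330 to 11742956 UMIs per library. Setd5 itself stood at a mean of 1.18 (WT3) and 1.07 (WT6) counts per 10000 UMIs, against 0.540 (Het5) and 0.586 (Het9). Xist, which is transcribed from the inactive X chromosome of female cells, was at 20.6 and 21.5 in the Setd5+/+ libraries and at 0.152 and 0.310 in the Setd5+/- libraries, so that genotype and fetal sex cannot be told apart. Barcodes found in more than 1 library belonged to 277 cells, of which 135 were melanocyte-like and 94 immune-like, classes that enter no comparison between classes. Levels are given as counts per 10000 UMIs of the cell, averaged over the cells of a library. Each UMI counts 1 mRNA molecule at its 3' end, so that levels of different genes were compared without a division by length.

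The start regions of 8 members that the results turn on are shown first: Rpl14, Rps12 and Rps18 were among the subunit genes with the largest differences between progenitors and neurons, Rps7 had the smallest one, and Rpl22 with Rpl22l1 and Rps27 with Rps27l are pairs whose members parted. Each sequence holds the 40 bases before and the first 20 bases after the RefSeq transcription start on build GRCm38.p6, 5' to 3' on the strand of the gene. Capitals mark the longest unbroken run of C and T within 20 bases of the start. Rpl22 and Rps27l have 2 starts each in the table, of which the first listed is shown.
Rpl14, chr9:120571477-120571536, plus strand: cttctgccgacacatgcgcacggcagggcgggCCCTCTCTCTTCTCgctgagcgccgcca
Rps12, chr10:23787190-23787249, minus strand: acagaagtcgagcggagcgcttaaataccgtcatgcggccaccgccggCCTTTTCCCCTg
Rps18, chr17:33955646-33955705, minus strand: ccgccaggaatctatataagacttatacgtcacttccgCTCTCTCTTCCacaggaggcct
Rps7, chr12:28635934-28635993, minus strand: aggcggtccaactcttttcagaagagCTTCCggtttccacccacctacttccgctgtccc
Rpl22, chr4:152325686-152325745, plus strand: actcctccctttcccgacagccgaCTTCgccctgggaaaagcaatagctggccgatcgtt
Rpl22l1, chr3:28805468-28805527, plus strand: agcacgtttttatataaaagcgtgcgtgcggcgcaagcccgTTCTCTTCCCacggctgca
Rps27, chr3:90213629-90213688, minus strand: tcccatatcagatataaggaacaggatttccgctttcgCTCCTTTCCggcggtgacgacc
Rps27l, chr9:66946046-66946105, plus strand: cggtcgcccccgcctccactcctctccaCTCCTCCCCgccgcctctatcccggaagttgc
The run was 14 bases long at Rpl14, 11 at Rps12 and Rps18, 10 at Rpl22l1, 9 at Rps27 and Rps27l, 5 at Rps7 and 4 at Rpl22. At other members named below, it was 10 at Rplp2 and Rpl13, 4 at the first listed start of Rps19 and 3 at Rpl41. Yet Rpl41 had a larger difference from excitatory neurons to radial glia than Rplp2, Rpl13 and Rps19. Whether the length of the run goes with the differences was not tested. RefSeq starts were found for 63 of the 84 members, and 30 of these genes (47.6%) had a run of at least 8 pyrimidines, against 18.4% of all 27025 genes with a start in that table. The core of the ETS family binding site, GGAAGT on either strand, lay within the 250 bases before and 50 bases after the start in 32 of the 63 members (50.8%) and in 26.5% of all genes. These matches describe the letters of the windows and were not tied to binding.

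The members together held 18.53% of the UMIs of WT3, 18.05% of WT6, 18.70% of Het5 and 18.52% of Het9. The libraries of both genotypes thus overlapped. Across the 77 subunit genes, the median of the mean level over libraries was 22.7, Rpl15 was the lowest at 7.57, and 70 of them lay between 10 and 40. Among the most abundant were Rpl13a (chromosome 7, 45125558 to 45128761, minus strand), Rps19 (chromosome 7, 24884371 to 24889806, plus strand), Rpl13 (chromosome 8, 123102350 to 123105244, plus strand) and Rpl41 (chromosome 10, 128548114 to 128549305, minus strand). Their means, each with an SD over the 4 libraries, were 40.9 ± 1.20 for Rpl13a, 38.7 ± 1.54 for Rps19, 37.8 ± 1.02 for Rpl13 and 37.4 ± 1.58 for Rpl41. The last 3 of these lay within 1 SD of their neighbor in this order. Small subunit genes had a median level of 24.7 and large subunit genes one of 21.9. The 7 relatives were lower, from 0.813 for Rps19bp1 to 9.24 for Rpl22l1, and together took 0.235% to 0.248% of the UMIs of a library.

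Cells were then placed into classes by marker genes, none of which is a ribosomal protein gene. Radial glia had at least 3 of Slc1a3, Aldoc, Sox9, Mt3, Ddah1, Mfge8 and Phgdh. Intermediate progenitors had Eomes, Neurog2 and a further marker. Young excitatory neurons had Neurod1 with Unc5d or Sstr2 and no Neurog2, and excitatory neurons had Neurod2 or Neurod6 with at least 2 of a list with Cntn2, Bhlhe22, Tbr1 and Fezf2, and no Neurod1. Dlx neuroblasts had at least 2 of Dlx1, Dlx2, Dlx5 and Sp9 without Lhx6 and Ebf1, Lhx6 interneurons had Lhx6 with a further marker such as Dlx1, Dlx2, Gad2 or Maf, and striatal neurons had Ebf1 with Isl1, Zfp503 or Six3. Cells with at least 3 of Top2a, Ube2c, Birc5, Cdk1, Nusap1, Cenpf and Ccnb1 were called cycling. Cycling subpallial cells also had at least 2 of the 4 Dlx neuroblast markers, and cycling pallial cells had none of these and at least 1 of Emx1, Eomes, Neurog2 and Neurod1. Several genes outside the gates followed the names: Fabp7 was at 73.7 in radial glia against 1.48 in excitatory neurons, Gria2 at 12.4 in excitatory neurons against 0.972 in radial glia, Npy at 4.82 in Lhx6 interneurons against 0.927 in Dlx neuroblasts, and Hmgb2 at 33.2 and 43.0 in the cycling classes. Btbd17 was at 1.91 in intermediate progenitors against 0.487 in radial glia. Other such genes did not single out a class. Tead2 was at 2.18 in intermediate progenitors, 2.15 in radial glia and 2.36 in cycling pallial cells. Dlx6os1 and Gad2 were at 8.61 and 3.22 in Dlx neuroblasts and at 9.09 and 3.09 in Lhx6 interneurons. Of all cells, 1655 stayed unassigned.

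The summed share of the ribosomal protein genes was higher in radial glia and intermediate progenitors than in the other 7 neural classes compared here. The gate of radial glia holds no marker of the pallium. In radial glia, the members took 22.4% of the UMIs in WT3, 22.5% in WT6, 21.9% in Het5 and 22.5% in Het9. In intermediate progenitors the 4 shares were 22.1%, 21.4%, 21.7% and 22.6%, and they overlapped those of radial glia. In excitatory neurons they were 16.0%, 14.6%, 14.4% and 15.5%, below each progenitor value. Cycling pallial cells lay between, at 19.0%, 19.1%, 19.5% and 19.8%, without overlap with intermediate progenitors above or with cycling subpallial cells below.

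Below cycling pallial cells, neighboring classes overlapped. The means over libraries with their SD (n = 4) were 17.3% ± 0.517 in cycling subpallial cells, 16.9% ± 0.688 in Dlx neuroblasts, 16.8% ± 0.274 in young excitatory neurons, 15.8% ± 0.969 in Lhx6 interneurons, 15.1% ± 0.775 in excitatory neurons and 13.9% ± 0.764 in striatal neurons. Young excitatory neurons were above excitatory neurons in each library, and the groups did not overlap, with 16.6% as the lowest share of the former and 16.0% as the highest of the latter. The 29 Cajal-Retzius-like cells were at 12.1% to 13.7%, with 5 to 13 cells per library, and overlapped striatal neurons. Outside the neural lineage, the 138 melanocyte-like cells held 22.6% to 23.7%, the 124 immune-like cells 18.3% to 20.7% and the 18 erythroid-like cells 3.11% to 7.14%.

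**Figure D1:**
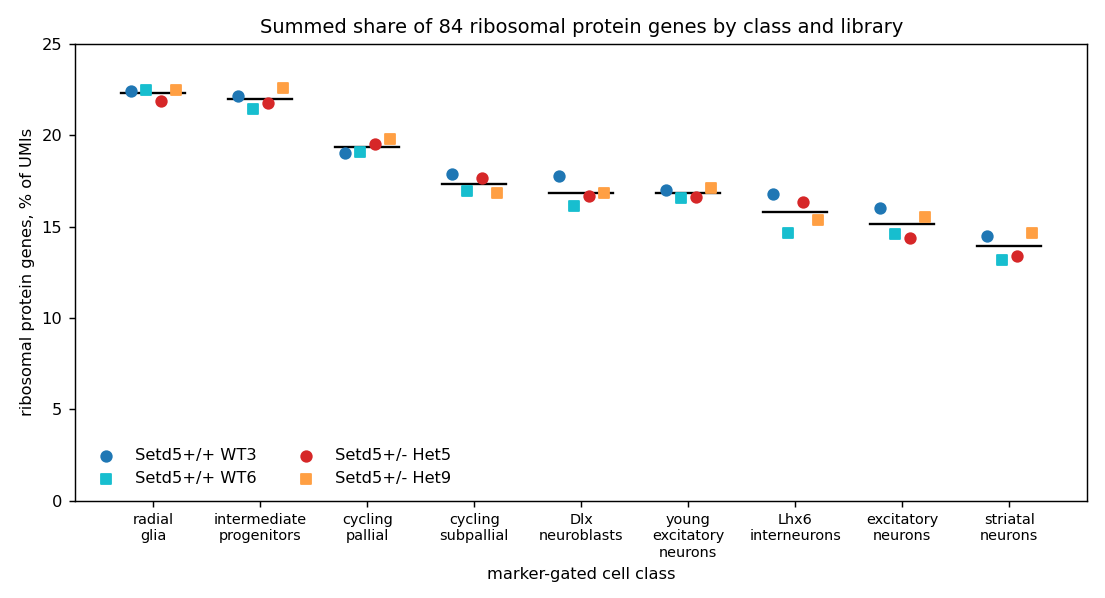
The summed share of the 84 ribosomal protein genes (vertical axis, percent of UMIs) is plotted for each marker-gated class and library, with blue (WT3) and cyan (WT6) points for Setd5+/+, red (Het5) and orange (Het9) points for Setd5+/- and a line at the mean of the 4 libraries. Radial glia and intermediate progenitors sit between 21.4% and 22.6%, and excitatory neurons between 14.4% and 16.0%.

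Single cells spread widely within a class. The lower and upper quartiles were 19.5% and 25.1% of UMIs in radial glia and 13.2% and 16.8% in excitatory neurons. The median excitatory neuron held 15.0%, and this value was exceeded by 97.7% of intermediate progenitors, 92.1% of radial glia, 88.5% of cycling pallial cells and 64.7% of young excitatory neurons. Over the 6562 cells, the share ran from 0.601% to 44.8%.

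Depth moved with the share to an extent that differed between classes. The rank correlation of a cell's share with its UMIs, within a class and library, ran from 0.02 to 0.14 over the 4 libraries in radial glia and from -0.05 to 0.12 in intermediate progenitors, but from 0.26 to 0.34 in excitatory neurons, 0.21 to 0.30 in young excitatory neurons, 0.17 to 0.51 in Dlx neuroblasts and 0.23 to 0.72 in Lhx6 interneurons. In cycling cells it ran from -0.18 to 0.15 (pallial) and from 0.15 to 0.31 (subpallial). The total UMIs enter both measures. The median depth was 6363 UMIs in radial glia, 6070 in intermediate progenitors, 5682 in excitatory neurons, 4272 in Dlx neuroblasts and 3748 in Lhx6 interneurons. Among cells with 4000 to 7000 UMIs, a range set after the data were seen, the mean share was 22.4% in radial glia, 22.2% in intermediate progenitors, 15.2% in excitatory neurons, 18.0% in Dlx neuroblasts, 17.5% in Lhx6 interneurons, 16.9% in cycling subpallial cells, 16.8% in young excitatory neurons and 15.5% in striatal neurons. The gap between progenitors and excitatory neurons was thus as large at like depth, whereas Dlx neuroblasts and Lhx6 interneurons moved up by more than the SD over libraries and then had higher means than cycling subpallial cells and young excitatory neurons, as striatal neurons had than excitatory neurons. The matched means rest on 10 to 33 Lhx6 interneurons and 4 to 11 striatal neurons per library. The lead of striatal over excitatory neurons was smaller than the SD over libraries given above for either class. The order of the class means below cycling pallial cells therefore depends on the depth of the cells compared. The share of mitochondrial transcripts lay between 3.16% and 3.64% in radial glia and between 3.58% and 3.90% in excitatory neurons.

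The ratio of large to small subunit UMIs changed little with the class. It was 1.25 to 1.26 over the libraries in radial glia, 1.22 to 1.24 in intermediate progenitors, 1.26 to 1.28 in excitatory neurons and 1.21 to 1.22 in cycling subpallial cells. Radial glia and excitatory neurons overlapped at this precision, and the lower ratio of cycling subpallial cells did not overlap either of them. The 77 mitochondrial ribosomal protein genes, which serve the separate ribosome of that organelle, took a mean of 0.773% of UMIs in radial glia, 0.696% in intermediate progenitors and 0.627% in excitatory neurons.

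Gene by gene, the classes were compared with limma on the log2 scale with 0.1 added to each mean, in 1 fit with the library as a block, and p-values were adjusted over the 8105 genes tested with a threshold of 0.05. All 84 members passed the filter on low values. From excitatory neurons to radial glia, 81 of 84 members rose and 0 fell, and 25% of all genes tested rose in this comparison. The median log2 difference of the members was 0.57, against -0.01 over all genes tested. When levels were taken relative to the UMIs of the other genes only, these medians were 0.71 and 0.11. Of the small subunit genes 30 of 31 rose, of the large subunit genes 45 of 46, and of the relatives 6 of 7. Rps7 (log2 difference 0.07, SE 0.05, limma adjusted p = 0.30), Rpl27 (0.12, SE 0.06, adjusted p = 0.11) and Rps19bp1 (0.33, SE 0.15, adjusted p = 0.072) did not pass the threshold.

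The members rose by unequal amounts. The largest difference was that of Rpl22l1, the paralog of Rpl22, whose level was 16.9 in WT3, 17.9 in WT6, 16.7 in Het5 and 17.5 in Het9 in radial glia and 7.03, 6.51, 5.57 and 6.36 in excitatory neurons. The groups were far apart, with a log2 difference of 1.43 (SE 0.08, limma adjusted p = 2.7e-18). Rplp1, which forms the flexible stalk that recruits elongation factors together with Rplp0 and Rplp2, was at 32.6, 31.7, 32.6 and 30.4 in radial glia and at 14.5, 13.8, 12.5 and 13.96 in excitatory neurons. Its log2 difference was 1.21 (SE 0.06, limma adjusted p = 2.2e-21), against 0.78 (SE 0.05) for Rplp0 and 0.67 (SE 0.06) for Rplp2. Rps27l, the paralog of Rps27 and a known p53 target, had 1.06 (SE 0.08), Rpl14 1.03 (SE 0.06) and Rps12 1.002 (SE 0.06), with the pyrimidine runs of the last pair printed above. Rpsa, which is also known as the laminin receptor, had 0.94 (SE 0.05).

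At the other end stood Rps7, a small subunit protein that binds Mdm2, with 29.02, 29.995, 28.03 and 29.78 counts per 10000 in radial glia and 28.7, 27.2, 26.3 and 29.2 in excitatory neurons. These groups overlapped. Rpl10, a large subunit protein that joins late in assembly, rose by 0.20 (SE 0.05), the smallest difference that passed. The abundant members named above lay between, with 0.55 for Rpl13a, 0.71 for Rps19 and Rpl13 and 0.94 for Rpl41.

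From excitatory neurons to intermediate progenitors, 81 of 84 members rose and 0 fell, where 14.2% of all genes tested rose. This comparison uses the same excitatory neurons as the one with radial glia, and the 2 counts are not independent. The median was 0.59, against -0.03 over all genes. All 77 subunit genes passed, from 0.24 for Rpl7a to 0.93 for Rps18, and the 3 members that did not pass were the relatives Rps19bp1, Rpl7l1 and Rpl36al, with log2 differences of -0.20, -0.18 and 0.16. Rps18, which sits in the head of the small subunit, was at 43.6, 42.2, 44.2 and 46.7 in intermediate progenitors and at 24.98, 21.84, 22.05 and 24.03 in excitatory neurons, groups that did not overlap (limma adjusted p = 1.1e-15). Rpl10a followed with 0.84 (SE 0.06), then Rps12 with 0.82 (SE 0.06), Rplp1 with 0.81 (SE 0.06) and Rps6, the substrate of the S6 kinases, with 0.77 (SE 0.06).

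From excitatory to young excitatory neurons, 37 of 84 members rose and 0 fell, where 2.38% of all genes tested rose, with a median log2 difference of 0.17, against 0.002 over all genes. The count was 12 without Het5 and 12 without WT6, and 31 and 32 without Het9 and WT3. Rps24, a small subunit gene mutated in some patients with Diamond-Blackfan anemia, was at 21.6, 21.8, 21.2 and 24.6 in young excitatory neurons and at 17.6, 16.97, 16.8 and 19.3 in excitatory neurons. It had the largest difference (0.33, SE 0.05, limma adjusted p = 3.0e-05), without overlap between the groups. Rps27, Rpl35a, Rps12 and Rps15a followed with 0.26 to 0.28, and Rps12 did not pass without Het5 or without WT6 (limma adjusted p = 0.11 and 0.070). None of the 7 relatives passed, and Rpl22l1 stood at 0.03 (SE 0.08).

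In the subpallial lineage, 16 of 84 members were higher in Dlx neuroblasts than in Lhx6 interneurons and 0 were lower, where 7.01% of all genes tested were higher. The median was 0.10, against 0.03 over all genes. The count was 6 without Het9 and 5 without WT6, so that leaving out either library removed most of the calls. Rpl10a (0.33, SE 0.06) and Rpl3, a protein near the peptidyl transferase center (0.31, SE 0.06), differed most, then Rplp1 (0.25, SE 0.06), Rpl14 (0.24, SE 0.06) and Rpl12 (0.24, SE 0.07). Rpl14 did not pass without Het9 or without WT6, nor Rpl12 without Het5, Het9 or WT6 (limma adjusted p from 0.055 to 0.15). In WT3, WT6, Het5 and Het9, Rpl10a was at 14.46, 11.498, 13.91 and 13.77 in Dlx neuroblasts and at 11.2, 10.7, 11.4 and 9.29 in Lhx6 interneurons, higher in the neuroblasts of each library and without overlap. Lhx6 interneurons had 29 to 75 cells per library, and striatal neurons, with 9 cells in Het5, were not tested.

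Members differed in both directions between cycling pallial cells and intermediate progenitors. In cycling pallial cells, 54 of 84 members were lower than in intermediate progenitors, where 16.9% of all genes tested were lower, and 6 were higher, where 18.8% were higher. The median was -0.20, against -0.02 over all genes. Rps27rt, a retrotransposed copy of Rps27, had the largest fall (-0.59, SE 0.11), and those of largest fall also included Rps14 and Rps27 (both -0.44, SE 0.04 and 0.05) and Rpl36 (-0.43, SE 0.06). Rps27 was at 18.8, 20.1, 17.4 and 19.9 in cycling pallial cells and at 26.5, 26.2, 23.6 and 27.03 in intermediate progenitors, without overlap (limma adjusted p = 2.9e-10). The 6 members that were higher included 4 of the 7 relatives, Rpl22l1 (0.55, SE 0.08), Rpl7l1 (0.44, SE 0.16), Rps27l (0.41, SE 0.08) and Rpl36al (0.27, SE 0.08), together with Rplp1 (0.20, SE 0.06) and Rpsa (0.15, SE 0.05). The number that were higher was 4 without Het5, 4 without WT3 and 3 without WT6. Rpl7l1 and Rpsa did not pass when any 1 of these libraries was left out (limma adjusted p from 0.063 to 0.26), nor Rpl36al without WT6 (0.093), and Rpsa did not pass either when levels were taken relative to the UMIs of the other genes (0.20). Cycling pallial cells had a median of 7793.5 UMIs and intermediate progenitors one of 6070, and the cycling gate can hold cells of any pallial class.

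The cycling subpallial cells gave a result that depends on the cells compared. Against Dlx neuroblasts, 20 of 84 members were higher, where 12.1% of all genes tested were higher, and 4 were lower, where 15.1% were lower. The median was 0.08, against -0.06 over all genes. Cycling subpallial cells had a median of 7025 UMIs and Dlx neuroblasts one of 4272. Among cells with 4000 to 7000 UMIs, 2 members were higher and 30 lower, with a median of -0.10, against -0.05 over all genes. Scaling by the median of ratios gave 47 higher and 0 lower, with a median of 0.18, against 0.02 over all genes. The median of the members minus that of all genes was 0.14 in the main comparison, 0.16 with this scaling and -0.06 at 4000 to 7000 UMIs. Much of the shift with the scaling was thus common to all genes. Without Het5 or WT6, 11 were higher, and without WT3, 2 were lower. The direction of most members is therefore not settled for this pair of classes. Rps27l and Rpl22l1 were higher in each of these settings, with log2 differences of 0.67 (SE 0.08) and 0.63 (SE 0.08) in the main comparison. Rps27l was at 5.89, 5.56, 5.39 and 5.52 in cycling subpallial cells and at 3.55, 3.26, 3.68 and 3.46 in Dlx neuroblasts. Rplp1 (0.32), Rps20 (0.31) and Rpl3 (0.31) were the next largest and did not pass among cells with 4000 to 7000 UMIs. The members that were lower were Rps27rt (-0.30), Rps27 (-0.22), Rpl10 (-0.21) and Rpl37 (-0.17). Rps27rt did not pass when any 1 of the 4 libraries was left out (limma adjusted p from 0.056 to 0.17), and Rpl37 did not pass without WT3 (0.13).

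**Figure D2:**
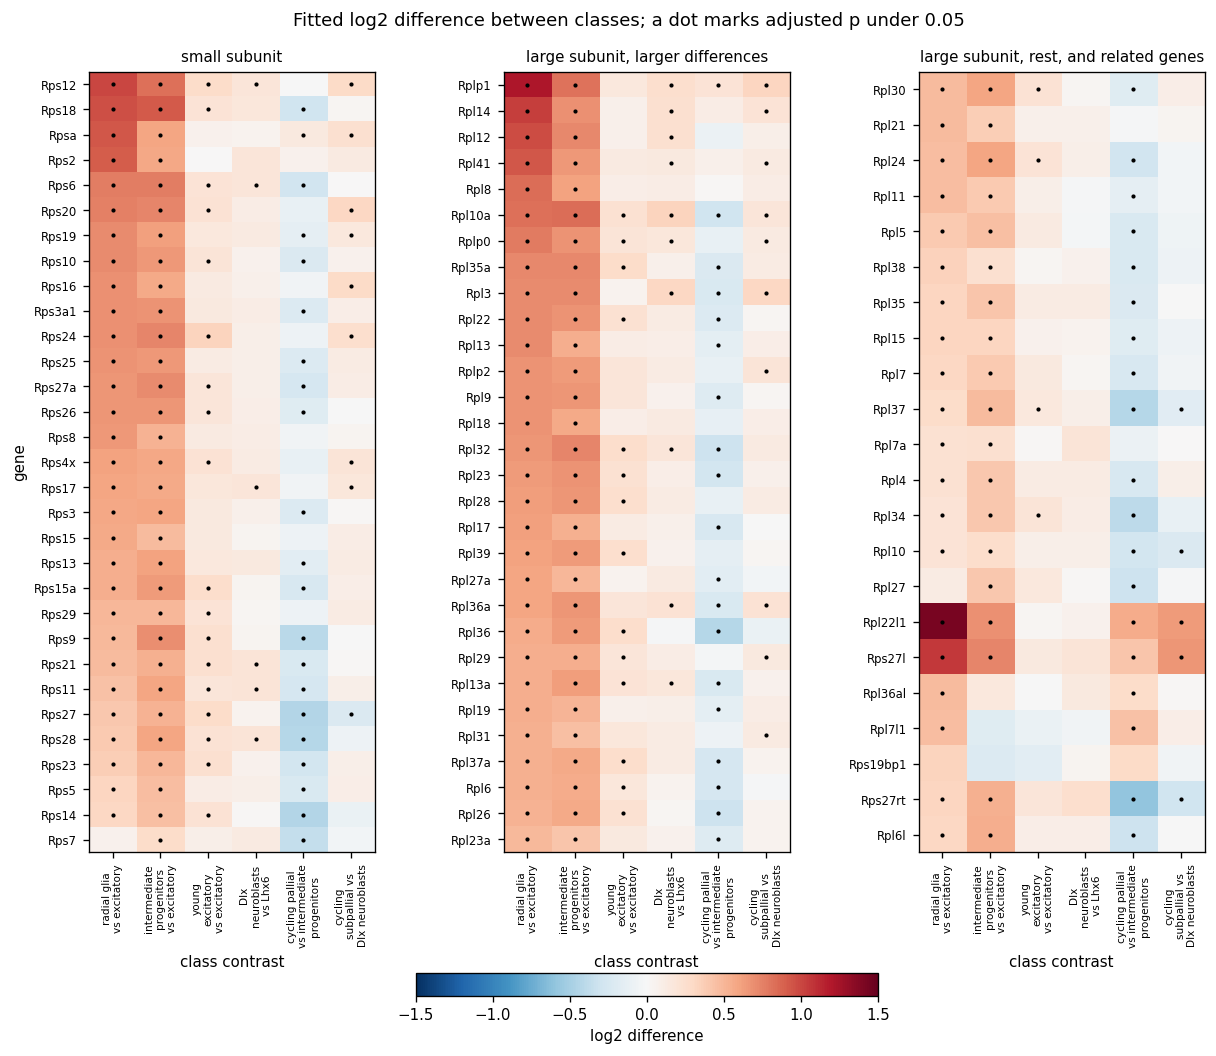
Each row is a ribosomal protein gene (83 of the 84 are drawn) and each column a comparison of classes. The color gives the fitted log2 difference, red for higher in the class named first, and a dot marks a limma adjusted p under 0.05. The first 2 columns are red in nearly all rows, the cycling pallial column is mostly blue, and Rpl22l1 and Rps27l are red in both cycling columns.

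The ratio of a paralog to its subunit gene varied with the class. The ratio of Rpl22l1 to Rpl22 was 1.51, 1.80, 1.68 and 1.81 in radial glia and 1.05, 1.07, 0.963 and 1.02 in excitatory neurons. In Dlx neuroblasts it was 0.862, 0.799, 0.837 and 0.725. Rpl22l1 mRNA thus outnumbered that of Rpl22 in each radial glia library and fell below it in each library of Dlx neuroblasts. For Rps27l and Rps27, the ratio separated cycling from other cells. It was 0.334, 0.324, 0.316 and 0.322 in cycling pallial cells and 0.323, 0.328, 0.323 and 0.327 in cycling subpallial cells, and its highest value in another class was 0.273, in the radial glia of Het5. The ratio of Rpl36al to Rpl36a was lowest in intermediate progenitors, with a mean of 0.279, and its highest means, 0.399 in cycling pallial cells and 0.396 in excitatory neurons, came from libraries that overlapped. Rpl7l1 was at a mean of 0.037 times the level of Rpl7, and Rpl3l, Rpl10l, Rpl39l and Rps4l had no row in the table.

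**Figure D3:**
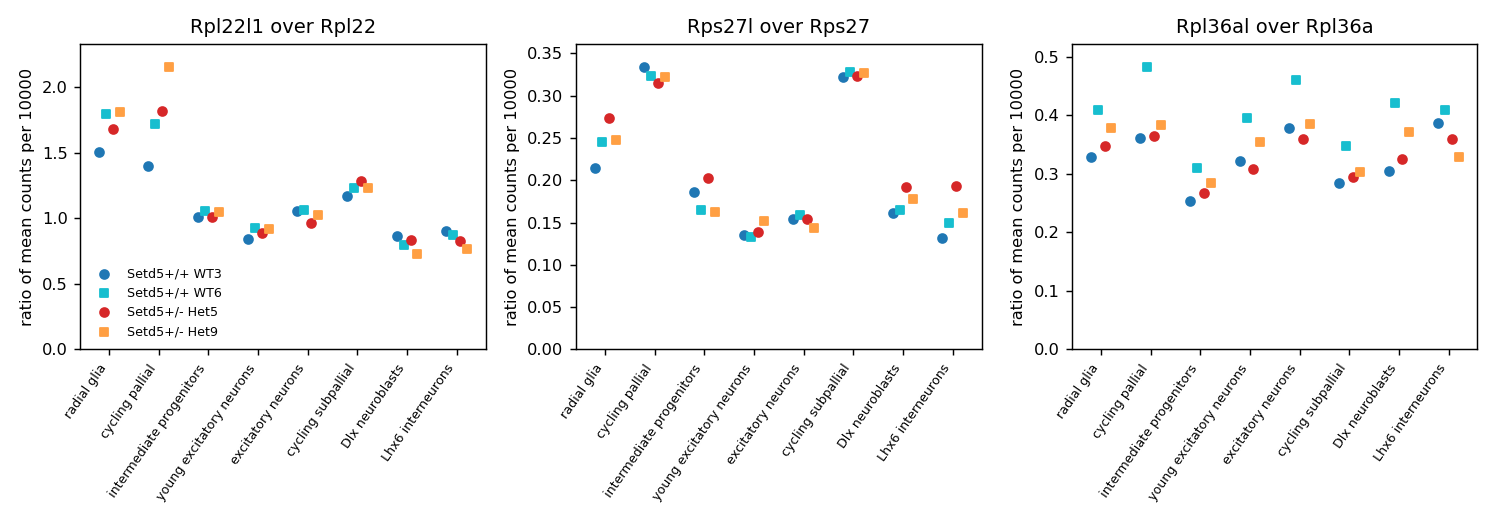
The ratio of mean counts per 10000 (vertical axis) of a paralog to its subunit gene is plotted by class, with a point for each of the 4 libraries. Rpl22l1 exceeds Rpl22 in radial glia and both cycling classes, the ratio lies between 0.963 and 1.07 in intermediate progenitors and excitatory neurons, and Rps27l over Rps27 stands above 0.31 in both cycling classes.

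Lists of other genes of the translation apparatus were read from the same fit. Fau and Gnb2l1, the latter the scaffold protein Rack1 of the small subunit, rose in radial glia and in intermediate progenitors by 0.38 to 0.49. Of all genes tested, 25% rose and 24.6% fell from excitatory neurons to radial glia, and 14.2% rose and 14.5% fell to intermediate progenitors. Of 20 other mRNAs with a TOP motif, 13 rose (65%) and 2 fell (10%) in radial glia, with a median of 0.29, and 16 rose (80%) and 0 fell in intermediate progenitors, with a median of 0.42. Pabpc1, the poly(A)-binding protein, rose by 1.19 and 0.86, and the elongation factor subunit Eef1d by 1.70 and 0.76. Eef2, which moves the ribosome along, fell in radial glia by 0.31, as did Hnrnpa1 by 0.30. Vim, on the same list, is also a marker of radial glia (4.50).

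Of 25 ribosome biogenesis genes tested, 13 rose (52%) and 2 fell (8%) in radial glia, with a median of 0.36. In intermediate progenitors, 1 rose (4%) and 3 fell (12%), with a median of -0.09, the latter share being near that of all genes. The gene that rose, Npm1 (0.37), is also among the TOP mRNAs and is counted in both lists. In cycling pallial cells against intermediate progenitors, 12 rose (48%, against 18.8% of all genes) and 0 fell, with a median of 0.35, among them the box H/ACA proteins Dkc1 (1.28) and Gar1 (1.17) and the box C/D protein Nop56 (1.13). Nop56 fell by 0.92 in intermediate progenitors against excitatory neurons. Of 76 mitochondrial ribosomal protein genes tested, 26 rose (34.2%) and 1 fell (1.32%) in radial glia. In intermediate progenitors 11 rose (14.5%), a share near that of all genes, and 3 fell (3.95%). Of 13 genes of translation control, Eif4ebp1 (2.20), a target of mTOR that blocks cap-dependent translation, and Mycn (0.62) rose in radial glia (15.4% of the list) and 0 fell, and 2 fell in intermediate progenitors (15.4%), Mycn by 0.85 and Eif4e by 0.38. The first share is below that of all genes and the second near it.

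Over the 32 means of a class in a library, the genes outside the list whose level followed the summed level of the members most closely were Acot13 (Pearson r = 0.95), Ccdc8 (0.94), Snhg18 (0.92), Dhx32 (0.92) and Acads (0.92). These points share libraries and total counts, and the values are a description.

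The second question of the design was whether Setd5+/- cells differ from Setd5+/+ cells. Over all cells, limma on the 4 library means called 0 of the 84 members, where 0.086% of all genes tested were called in either direction, and 0 members had an unadjusted p under 0.05. Without the cells of shared barcodes, 0 members were called too. The median log2 difference of the members (Setd5+/- minus Setd5+/+) was 0.02, with a range from -0.08 for Rpl23a to 0.26 for Rpl26 and a median SE of 0.05. Within classes, 0 members were called in each of 8 classes. The share of all genes called was 0.133% in radial glia, 0.0628% in cycling pallial cells, 0.105% in intermediate progenitors, 0.104% in young excitatory neurons, 0.0778% in excitatory neurons, 0.0672% in cycling subpallial cells, 0.105% in Dlx neuroblasts and 0.0396% in Lhx6 interneurons. At an unadjusted p under 0.05 there were 4 members in radial glia, 5 in cycling pallial cells, 2 each in intermediate progenitors, young excitatory neurons and excitatory neurons, 1 each in cycling subpallial cells and Dlx neuroblasts and 0 in Lhx6 interneurons. These are 0% to 5.95% of the members, and 3.78% to 5.73% of all genes tested in these classes had such a p. The lowest limma adjusted p of a member, 0.805, was that of Rpl41 in Dlx neuroblasts (-0.24, SE 0.10).

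The summed share overlapped between genotypes in 8 of the 9 gated classes of the plot of shares. In cycling pallial cells it was 19.0% and 19.1% in the Setd5+/+ libraries and 19.5% and 19.8% in the Setd5+/- libraries, with 42 to 81 cells each. Among the 11 to 27 of these cells per library with 4000 to 7000 UMIs, the order was the opposite, at 19.5% and 19.3% in WT3 and WT6 against 18.4% and 18.8% in Het5 and Het9. Outside the plot, the share was higher in Setd5+/- without overlap in melanocyte-like and erythroid-like cells, and it overlapped in immune-like and Cajal-Retzius-like cells. Most melanocyte-like cells had barcodes shared between libraries, and erythroid-like cells numbered 3 to 6 per library. With 2 libraries per genotype, no permutation test can reach the threshold, and none was run. The genotype difference of the class comparisons was tested within libraries. For radial glia minus excitatory neurons, intermediate progenitors minus excitatory neurons and Dlx neuroblasts minus Lhx6 interneurons, 0 members were called by limma, 0 had an unadjusted p under 0.05, and 0% of all genes tested were called. The median SE of the members in these differences was 0.27, 0.20 and 0.37.

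The 4 X-linked members were of interest because the genotypes differ in Xist. Over all cells, in WT3, WT6, Het5 and Het9, Rps4x was at 32.4, 31.5, 34.1 and 33.2. Rpl10 was at 25.4, 26.0, 26.7 and 28.0, Rpl39 at 19.0, 18.3, 18.1 and 19.3, and Rpl36a at 13.06, 11.57, 13.02 and 12.18. For Rps4x and Rpl10, both Setd5+/- libraries were above both Setd5+/+ libraries, by 0.07 (SE 0.05) and 0.09 (SE 0.05) on the log2 scale, and neither passed (limma adjusted p = 0.99 for each). With so few libraries, such an order also arises without a difference, and the share of all genes that show it is not given here. Rpl39 and Rpl36a overlapped.

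Libraries of the same genotype stood apart for 4 members, which were singled out after their values were seen. Their coefficient of variation over the 4 libraries was above 10%, against a median of 3.01% over the members, and 12.04% of the 108 other genes of at least the level of Rpl15 were above 10%. Rpl26, a large subunit protein at the exit of the peptide tunnel that also binds p53 mRNA (chromosome 11, 68901583 to 68906989, plus strand), was at 20.4 in WT3, 19.0 in WT6, 20.1 in Het5 and 27.9 in Het9. Het9 was the highest library in 8 of 8 classes, for example at 33.9 in radial glia against 22.2 to 23.0 in the other 3. This library sets the value of Rpl26 in the comparison of genotypes: the log2 difference was 0.26 (SE 0.13, limma adjusted p = 0.99) with 4 libraries, 0.03 without Het9 and 0.50 without Het5, and in the last setting, where Het9 alone stands for its genotype, Rpl26 was called (limma adjusted p = 0.032).

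Rplp0 (chromosome 5, 115559467 to 115563727, plus strand) divided the libraries another way, with 25.8 in WT3, 33.1 in WT6, 34.9 in Het5 and 27.4 in Het9. WT6 and Het5 were above WT3 and Het9 in 8 of 8 classes, so that the split ran across the genotypes. Gm8730, a processed pseudogene that shares 62.8% of its 31-base words with transcripts of Rplp0, was at 11.9, 2.53, 2.64 and 13.7, high in the libraries in which Rplp0 was low, again in 8 of 8 classes. The sum of both genes was 37.7, 35.7, 37.5 and 41.1, and its coefficient of variation was 5.94%, against 14.5% for Rplp0 alone. The authors' counting of reads that could come from either gene is not given in the sources used here, and its part in this split was not tested.

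Rpl35 and Rpl23a also differed between libraries. Rpl35 was at 11.1, 13.8, 11.6 and 15.0, with WT6 and Het9 above WT3 and Het5 in 7 of 8 classes, Lhx6 interneurons being the exception. Rpl23a was at 25.5, 21.2, 23.6 and 20.4, with WT3 the highest in 8 of 8 classes. For this pair of genes, the copies in the table did not run opposite to the gene as Gm8730 did: Gm2000, which shares 90.4% of its words with Rpl35, was at 0.919, 0.974, 0.823 and 1.06, and Rpl23a-ps3, with 92.9%, was at 3.29, 2.999, 3.11 and 2.86. Classes of 1 library come from the same fetus, and their counts are not independent.

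**Figure D4:**
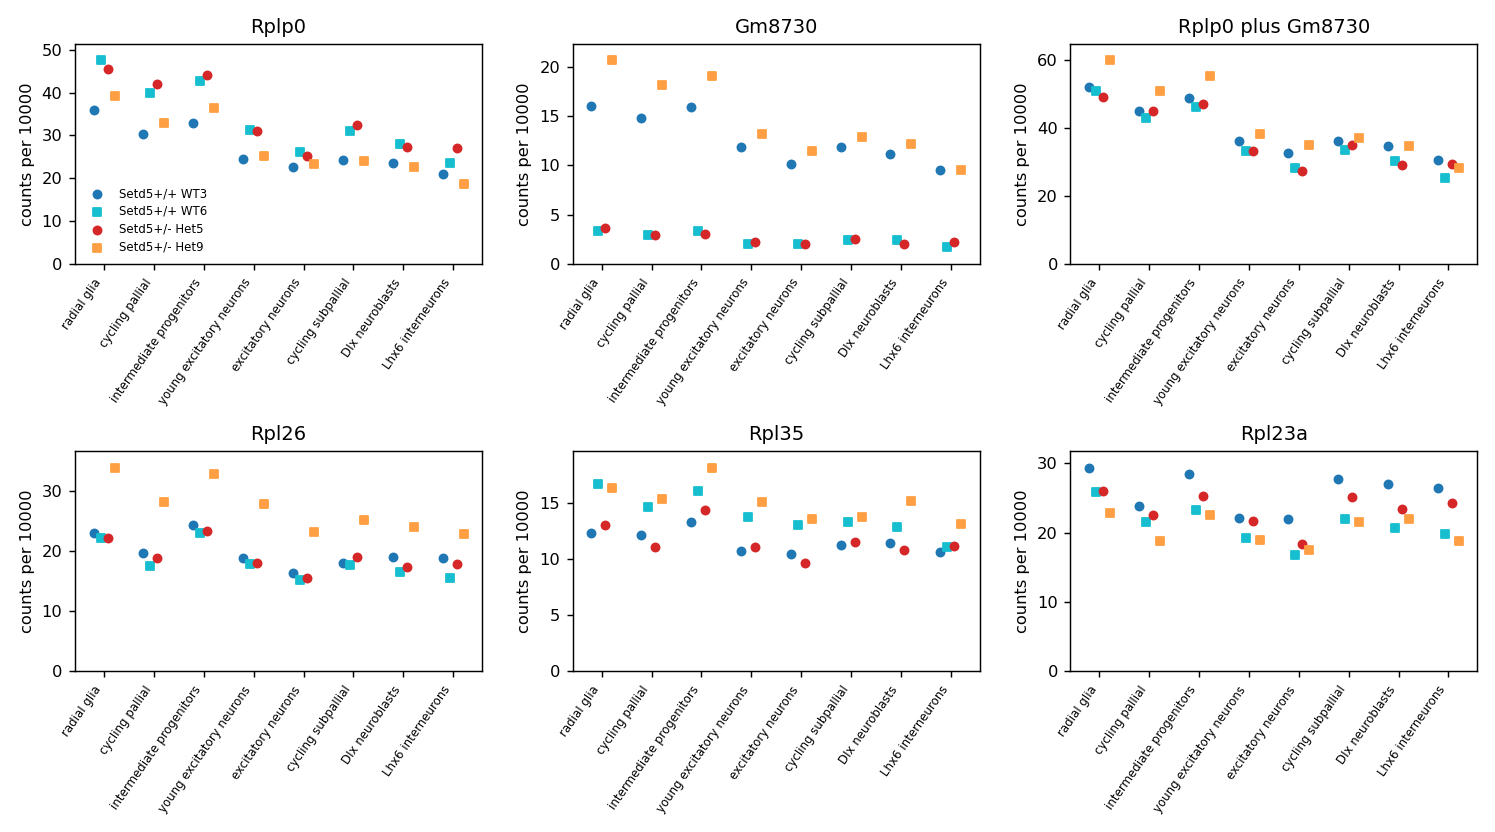
Mean counts per 10000 (vertical axis) are plotted by class for Rplp0, its pseudogene Gm8730, their sum, Rpl26, Rpl35 and Rpl23a, with a point for each library. WT6 and Het5 are high for Rplp0 and low for Gm8730 in each class, and Het9 alone is high for Rpl26.

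Near-identical copies bear on other members as well. In the table, 25 rows that are not members shared at least 50% of their 31-base words with 1 of 20 members, and 14 of these rows had a mean level of at least 0.5. Among the members themselves, Rps27rt shared 91.6% of its words with Rps27, and Rpl6l 72.2% with Rpl6, so that the values of these relatives are uncertain.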

How the data were processed

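CD24+ CD45- cells of the E18.5 cortex were sequenced by the authors in 4 droplet libraries, 2 per genotype. The values deposited by the authors are on a natural log scale, as the logarithm of 1 plus a cell's UMIs per 10000. Among tools, Seurat 2.3.0 and Cell Ranger 2.1 appear in the submitters' processing notes, together with build mm10. How reads with several matches were treated is not stated there. Whole UMIs were recovered from the steps of the values in each cell, and 100% of the values above 0 were whole within 0.001. No doublet caller was run, and cells that met more than 1 gate were left out.

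The members, the marker gates and the other gene lists were chosen with earlier results of these data known. Gates used detection of markers, so that they depend on depth. For each class and library, counts per 10000 were averaged over cells, and classes with fewer than 20 cells in a library were not tested. limma 3.58.1 (R 4.3.3), with its trended prior variance, was applied to log2(mean + 0.1) for genes with a mean of at least 0.1, with Benjamini-Hochberg adjustment over all genes tested and a two-sided threshold of 0.05. The class comparisons had the library as a block. Fold changes are on the scale of log2(value + 0.1) and understate the change of low genes. The fits were tested on simulated data. The summed share was given without a test. Libraries, and never single cells, were the replicates. In the genotype comparisons, p-values measure the spread between 4 libraries. In the class comparisons, they measure the spread that remains after the class and library effects, pooled over the tested classes. Classes of a library come from the same fetus and were treated there as independent points.

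Named genes were the 5 most abundant members, up to 5 members of largest change in each direction in a comparison, the X-linked members, the stalk proteins and Rpsa, paralog pairs, Setd5 and Xist, and the 5 genes most like the summed level. Others belong to a list or to the markers, or were chosen after their values were seen (Rps7, Rpl27, Rpl10, Rpl7a and Rps19bp1 as the members of smallest difference, and Rpl26, Rpl35, Rpl23a and their copies). Some genes that this rule, the lists or the gates include are not reported here. Positions of genes come from GENCODE M21 (GRCm38), and start regions from RefSeq (GRCm38.p6). Near-identical copies were found by shared 31-base words of GENCODE M21 transcripts. Alternatives were other pseudocounts (0.01 and 1), no filter, leaving out each library, summed UMIs, scaling by other genes or by the median of ratios, cells with at least 3000 UMIs, cells without shared barcodes, 1 more marker per gate and, added later, cells with 4000 to 7000 UMIs.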

Additional observations from a re-analysis of the deposited data

Results flagged for a closer look

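In groups of 4 libraries, the lowest or highest value was checked for its gap to the nearest other, relative to the range. Of 22 values checked (9 summed shares and 13 levels), 3 stood apart. Chance gives about 1 in 20, a rate that does not apply to the levels of Rpl26, Rplp0, Rpl35 and Rpl23a, which were included because their libraries were seen to differ. The summed share of radial glia in Het5, 21.9%, lay below the other 3 libraries. The level of Rpl26 over all cells in Het9, 27.9 counts per 10000, lay above the others, which restates what singled the gene out, and that of Rpl13a in WT6, 39.1, lay below them.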

How the results depend on the processing

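No paired analysis was possible because the library names carry no replicate number. The block was the library itself: without the library as a replicate block, the members called higher numbered 22 in young against excitatory neurons, 5 in Dlx neuroblasts against Lhx6 interneurons and 14 in cycling subpallial cells, where 2 were lower, and the counts for radial glia and intermediate progenitors stayed at 81. Leaving out 1 library at a time gave 78 to 81 members higher in radial glia, 80 to 81 in intermediate progenitors, 12 to 32 in young excitatory neurons, 5 to 15 in Dlx neuroblasts, 3 to 6 higher in cycling pallial cells, and 11 to 21 higher and 2 to 3 lower in cycling subpallial cells. For genotype it gave 0 to 1 called members over all cells, in radial glia, cycling pallial cells, intermediate progenitors, young excitatory neurons and Dlx neuroblasts. Where a library was left out, 1 genotype had a single library, whose spread was taken from the other genotype. Without WT6, Rpl41 was called in Dlx neuroblasts (-0.34, limma adjusted p = 0.0011). With 1 more marker per gate, 58 members were higher in young excitatory neurons, and 5 were higher and 12 lower in cycling subpallial cells. The shares were then 22.6% in radial glia, 18.9% in cycling pallial cells, 17.4% in young excitatory neurons and 16.6% in cycling subpallial cells. With at least 3000 UMIs per cell, 12 members were higher and 16 lower in cycling subpallial cells, and the striatal share was 14.8%. With 4000 to 7000 UMIs, chosen after seeing the data, 2 were higher and 30 lower in cycling subpallial cells, 1 (Rps19bp1) was lower in intermediate progenitors than in excitatory neurons, and the shares were 18.0% in Dlx neuroblasts, 17.5% in Lhx6 interneurons and 15.5% in striatal neurons. Median of ratios scaling gave 47 higher and 0 lower in cycling subpallial cells, where the median over all genes also rose, and no filter gave 10 higher in Dlx neuroblasts. As a mean over single cells, the share was 18.0% over all cells and 13.1% in striatal neurons, and without the relatives it was 22.0% in radial glia (21.96%). The cause of these changes was not tested. Of the values recomputed for named genes, 557 kept direction and side of the threshold and 36 lost the call. Rpl26 over all cells without Het5 and Rpl41 in Dlx neuroblasts without WT6 gained one. These values did not include every genotype fit within a class, so that further calls with a library left out are not counted here. The limma comparisons of Lhx6 interneurons at 3000 UMIs or more and at 4000 to 7000, and of cycling pallial cells with 1 more marker or at 4000 to 7000 UMIs, were not run because a library had fewer than 20 cells, and neither was the planned comparison of striatal neurons. The shares of these classes were computed all the same.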
